A study of Mus musculus with 6 samples.

Results

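Transcripts of 10 genes that make prostaglandins, thromboxane and leukotrienes were measured in mouse peritoneal macrophages given R-2-hydroxyglutarate (R-2-HG) or vehicle. The genes were taken by name from a table of 34745 genes, and all 10 were present: Ptgs1, Ptgs2, Ptges, Ptgis, Hpgds, Tbxas1, Alox5, Alox5ap, Lta4h and Ltc4s. No receptor was among them, so receptors are described with the rest of the pathway. Macrophages of C57BL/6 mice, phagocytes taken from the peritoneal cavity, had been kept for 24 h with 0.1 mM R-2-HG in 3 libraries and for 24 h with vehicle in the other 3. The labels give neither age nor sex, and they leave unsaid whether each library had its own mouse or dish. A p-value here therefore covers only the spread among the 6 libraries, which may be technical. R-2-HG is made by mutant isocitrate dehydrogenases and competes with 2-oxoglutarate, a substrate of many dioxygenases.

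Eicosanoids are short-lived lipid signals made from arachidonic acid, which phospholipases free from membranes. Cyclooxygenases turn it into prostaglandin H, from which separate terminal synthases make prostaglandins E, D and I and thromboxane. On the other arm 5-lipoxygenase, helped by its membrane partner FLAP, makes leukotriene A, which is either hydrolysed to leukotriene B or joined to glutathione to give the cysteinyl leukotrienes. Peritoneal macrophages are a classic source of both kinds of mediator.

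The cyclooxygenase genes have start regions that differ in sequence, and both are shown because their transcripts are set side by side below. Each run is the 250 bases before the start that RefSeq annotates in GRCm38.p6, on the plus strand of chr2:36230176-36230425 for Ptgs1 and of chr1:150099781-150100030 for Ptgs2, with capitals at the matches to a motif.
Ptgs1: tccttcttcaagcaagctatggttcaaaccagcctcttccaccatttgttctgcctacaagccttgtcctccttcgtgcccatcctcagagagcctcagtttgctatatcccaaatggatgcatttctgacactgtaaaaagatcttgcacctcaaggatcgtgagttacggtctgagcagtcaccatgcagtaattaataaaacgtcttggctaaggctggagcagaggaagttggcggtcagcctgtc
Ptgs2: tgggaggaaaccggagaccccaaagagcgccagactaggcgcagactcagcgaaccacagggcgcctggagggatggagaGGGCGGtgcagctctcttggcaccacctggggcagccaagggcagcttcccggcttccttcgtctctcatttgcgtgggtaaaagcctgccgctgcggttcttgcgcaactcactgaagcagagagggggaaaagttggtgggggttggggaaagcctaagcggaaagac
A search on both strands covered these bases and the 50 after the start. It used 7 motifs: the TATA box TATAAA, the GC box GGGCGG, the CCAAT box CCAAT, the E-box CACGTG, the CRE core CGTCA, an NF-kB-like GGGNNTTCC and a C/EBP-like TTNNGNAAT. Ptgs1 held no match to any of them. Ptgs2 held a GC box 170 bases before the start, shown in capitals, and after the start a CRE core at base 14 and an E-box at base 17 that share letters. Of 32544 start regions of the same length, 35.9% held the GC box, 20.9% the CRE core and 7.17% the E-box. The same search in the other members with an entry (8 of 10 in all, with none for Ptgis and Alox5ap) found GC boxes in Ptges and Alox5, a TATA box in Tbxas1 alone (13.6% of all start regions), CCAAT boxes in Lta4h alone (37.4%) and a C/EBP-like match in Hpgds alone (11.4%). The NF-kB-like letters were in none of the 8 and in 5.85% of all start regions. These matches are descriptions of sequence, not of binding. Only the letters given were sought, so variants of a motif were not counted.

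The values are FPKM, fragments scaled to transcript length and library size, so levels of different genes can be set against each other. The 3 values of a group always stand in the order of libraries 1, 2 and 3. The spacing of low values put the depth at 13670000 to 16620000 fragments per library, so that a single fragment from 2 kb of transcript counted for 0.0301 to 0.0366 FPKM. The defining macrophage markers were abundant in all libraries, with Lyz2 at 16924 to 23901 FPKM and Cd68 at 1033 to 1407 FPKM. Markers of other cells that make eicosanoids differed in level. The 9 mast cell markers summed to between 0.00527 and 2.44 FPKM with R-2-HG and 1.18 and 1.77 FPKM with vehicle, with Fcer1a at 0 in all 6 libraries. The 6 eosinophil markers summed to 3.04 to 4.22 FPKM with R-2-HG and 3.78 to 4.202 FPKM with vehicle, nearly all of it Siglecf, with Epx at 0. The 6 platelet and megakaryocyte markers summed to 32.4 to 64.0 FPKM with R-2-HG and 26.4 to 65.0 FPKM with vehicle, nearly all of it Pf4, with Gp9 at 0. The 6 neutrophil markers summed to 29.8 to 46.9 FPKM with R-2-HG and 28.7 to 54.7 FPKM with vehicle, mostly Mmp8 and S100a8. The rest of them were low, with means over all 6 libraries of 0.924 FPKM for S100a9, 0.624 for Retnlg, 0.344 for Ngp and 0.016 for Ly6g. The values of fibroblast and mesothelial markers stand beside the results they move with.

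None of the synthesis genes passed the test for R-2-HG against vehicle. Of the 10, 9 reached the filter of a mean of 1 FPKM and were tested on log2(FPKM + 1) with limma, and 0 had an adjusted p under 0.05, as did 0% of all 9701 genes tested. At an unadjusted p under 0.05 the count was 0 of 9, against 1.44% of all genes. The smallest unadjusted p of a synthesis gene was 0.303 (adjusted p = 0.99998, limma). Differences of the group means lay between -0.15 and 0.28 on the log2(FPKM + 1) scale, 6 of them higher and 3 lower with R-2-HG, with a median of 0.08 beside -0.004 over all genes. Their 95% intervals lay within 1 unit of 0 for 8 of 9 genes, but within 0.5 for 3 (Lta4h, Tbxas1 and Ptges). For the other 6 a difference of 0.5 was inside the interval on at least 1 side. These intervals leave the replicate number out of the fit. With that number as a block the SE fell from 0.25 to 0.12 for Ptgs1 and from 0.43 to 0.21 for Ltc4s. For Ptges it hardly moved (0.161 and 0.158). In all 10 genes the values of the 3 R-2-HG libraries overlapped those of the 3 vehicle libraries, while the groups were apart in 4.69% of all genes. In bulk RNA, fewer cells of a type and less RNA per cell cannot be told apart.

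**Figure D1:**
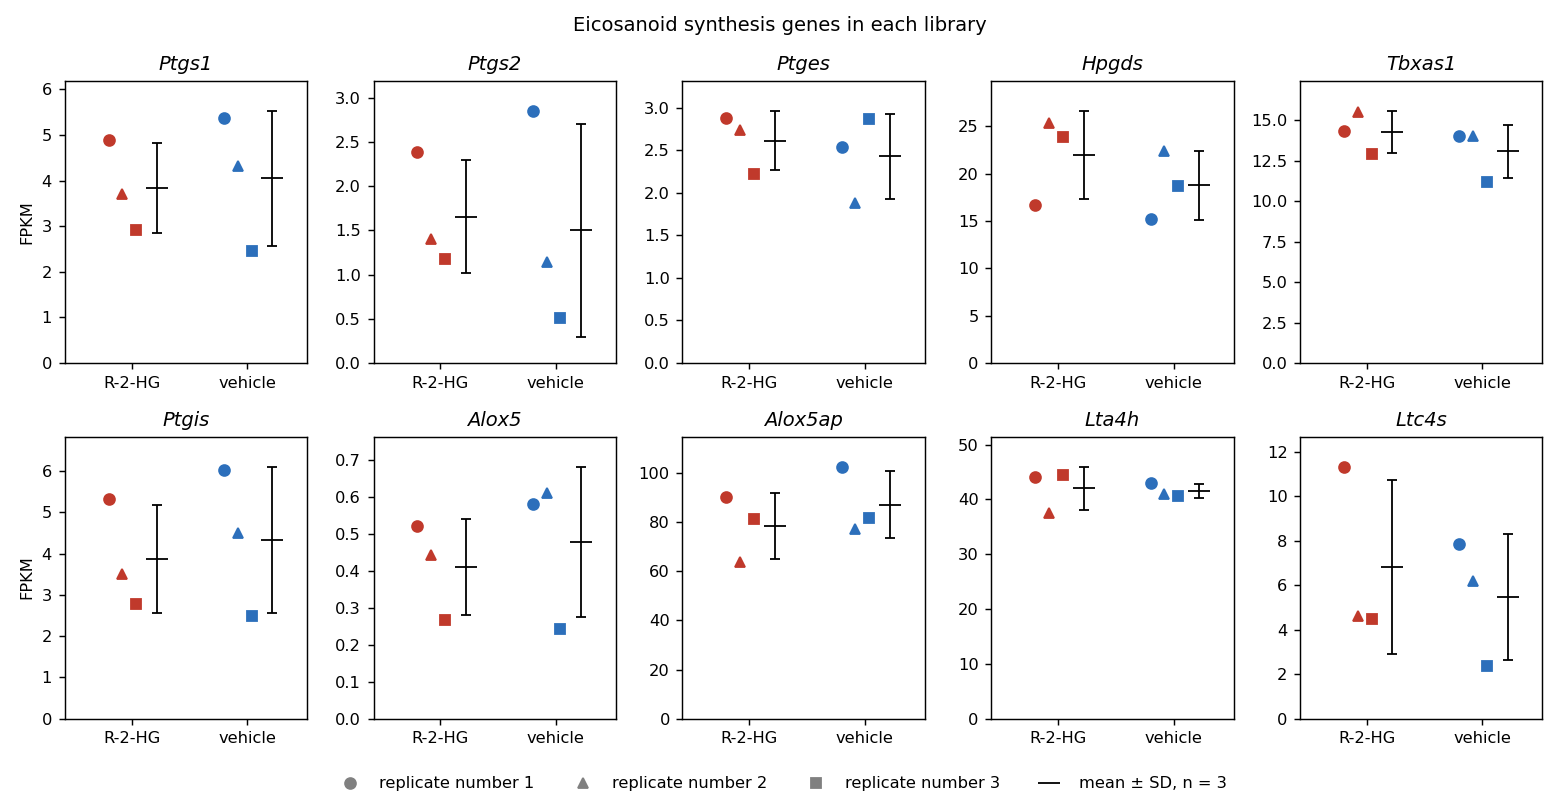
FPKM of each of the 10 synthesis genes in every library, R-2-HG in red and vehicle in blue, with the mean and SD of 3 libraries beside the points and each axis starting at 0. The groups overlap in every panel, and in Ptgs1, Ptgs2, Ptgis and Ltc4s the library numbered 1 stands highest in each group.

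**Figure D2:**
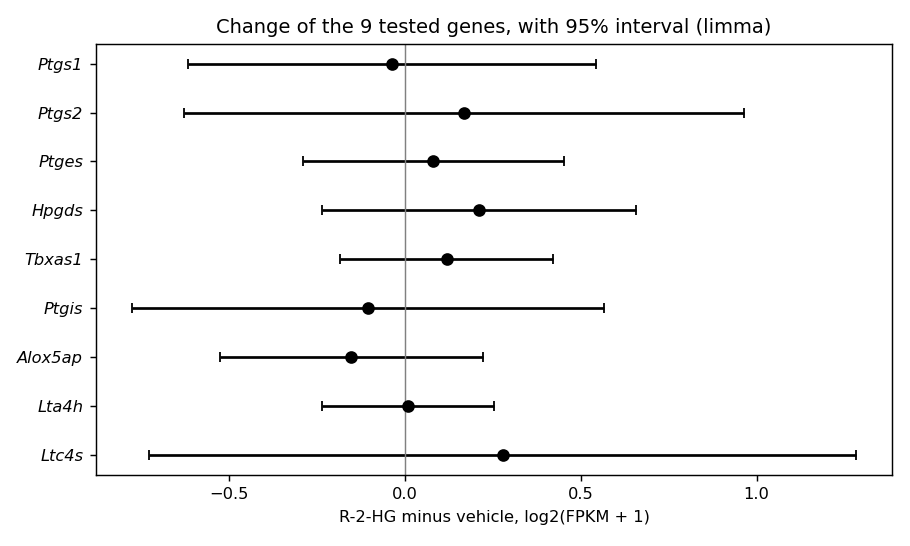
Difference of the group means, R-2-HG minus vehicle, on the log2(FPKM + 1) scale for the 9 genes tested, with the 95% interval from limma. All intervals include 0, the narrowest for Lta4h and the widest for Ltc4s.

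Both cyclooxygenase genes were expressed at a low level. Ptgs1 encodes cyclooxygenase 1, the form that most tissues carry at rest (chromosome 2, 36230426 to 36252272, GRCm38). It stood at 4.89, 3.71 and 2.91 FPKM with R-2-HG and at 5.37, 4.32 and 2.46 FPKM with vehicle. The lowest and the highest value of the 6 both came from vehicle. The difference was -0.04 on log2(FPKM + 1), with a 95% interval of -0.62 to 0.54.

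Ptgs2 encodes cyclooxygenase 2, which inflammatory signals induce (chromosome 1, 150100031 to 150108227). It stood at 2.38, 1.40 and 1.18 FPKM with R-2-HG, against 2.85, 1.14 and 0.513 FPKM with vehicle. Libraries numbered 1 were highest in each group, and the vehicle values spanned the R-2-HG values on both sides. The mean was 1.65 ± 0.642 FPKM with R-2-HG and 1.50 ± 1.21 FPKM with vehicle (SD, n = 3 each), a difference of 0.17 on log2(FPKM + 1) with a 95% interval of -0.63 to 0.96. Ptgs1 was above Ptgs2 in all 6 libraries, by a ratio of FPKM of 2.05, 2.65 and 2.47 with R-2-HG and 1.89, 3.78 and 4.79 with vehicle. The ratio did not differ beyond its spread between the groups (two-sided exact permutation p = 0.4, adjusted p = 0.933 over 4 ratios, where 3 against 3 cannot go below 0.1). That permutation did not pair libraries of the same number.

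Among the terminal prostanoid synthases counted as synthesis genes, those of prostaglandin D and thromboxane were the most abundant. Hpgds, the haematopoietic prostaglandin D synthase (chromosome 6, 65117293 to 65144908), stood at 16.7, 25.3 and 23.9 FPKM with R-2-HG and at 15.2, 22.4 and 18.7 FPKM with vehicle. The R-2-HG library was above the vehicle library of the same number 3 times out of 3, as in 11.7% of all genes tested, and the libraries numbered 1 were lowest in each group. The difference was 0.21 on log2(FPKM + 1), with a 95% interval of -0.23 to 0.66. With the replicate number as a block its unadjusted p was 0.0433, the smallest among the synthesis genes (adjusted p = 0.991, limma).

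Tbxas1 encodes thromboxane A synthase (chromosome 6, 38875404 to 39084585). Its values were 14.4, 15.5 and 12.9 FPKM with R-2-HG and 14.0, 14.1 and 11.2 FPKM with vehicle. Here too the R-2-HG library was the higher of each same-numbered pair, although the groups overlapped. The difference was 0.12 on log2(FPKM + 1), with a 95% interval of -0.18 to 0.42.

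Ptgis, the prostacyclin synthase (chromosome 2, 167191805 to 167240604), stood at 5.33, 3.50 and 2.79 FPKM with R-2-HG and at 6.02, 4.49 and 2.48 FPKM with vehicle. In each group the library numbered 1 was highest and that numbered 3 lowest, as for Ptgs1. The difference between treatments was -0.10 on log2(FPKM + 1), with a 95% interval of -0.77 to 0.57. Ptges, the inducible microsomal prostaglandin E synthase (chromosome 2, 30889471 to 30929863), varied little. It stood at 2.87, 2.74 and 2.22 FPKM with R-2-HG and at 2.54, 1.88 and 2.86 FPKM with vehicle, and no library was far from the others. The difference was 0.08 on log2(FPKM + 1), with a 95% interval of -0.29 to 0.45.

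In the leukotriene arm Alox5ap and Lta4h were abundant, Ltc4s was lower and the lipoxygenase itself was scarce. Alox5, the 5-lipoxygenase itself (chromosome 6, 116410077 to 116461178), was the least abundant of the 10 genes and the only one under the filter. It was listed at 0.520, 0.444 and 0.267 FPKM with R-2-HG and at 0.581, 0.610 and 0.244 FPKM with vehicle. All values lay above that of 1 fragment of a 2 kb transcript, and the libraries numbered 3 were lowest in each group. Without a filter the difference was -0.06 on log2(FPKM + 1), with a 95% interval of -0.42 to 0.30.

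Alox5ap encodes FLAP, which presents arachidonic acid to 5-lipoxygenase (chromosome 5, 149264767 to 149288153), and was the most abundant of the 10. It stood at 90.2, 63.9 and 81.3 FPKM with R-2-HG and at 102.6, 77.0 and 81.6 FPKM with vehicle. The R-2-HG value was the lower in every pair, by very little in pair 3, as in 11.8% of all genes. The difference was -0.15 on log2(FPKM + 1), with a 95% interval of -0.53 to 0.22. Alox5ap exceeded Alox5 in FPKM by a ratio of 173, 144 and 304 with R-2-HG and 176, 126 and 335 with vehicle. The ratio was high in all 6 libraries and overlapped between the groups (two-sided exact permutation p = 1, adjusted p = 1).

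Lta4h, the leukotriene A hydrolase that makes leukotriene B (chromosome 10, 93453411 to 93484875), was the steadiest of the 9 genes tested. It averaged 42.0 ± 3.95 FPKM with R-2-HG and 41.6 ± 1.30 FPKM with vehicle (SD, n = 3 each), and all 6 libraries lay between 37.4 and 44.4 FPKM. Its interval was the narrowest, from -0.23 to 0.25 on log2(FPKM + 1).

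Ltc4s, which joins glutathione to leukotriene A (chromosome 11, 50236461 to 50238616), was the least steady. It stood at 11.3, 4.64 and 4.50 FPKM with R-2-HG and at 7.87, 6.19 and 2.36 FPKM with vehicle. The library numbered 1 was highest in each group, and R-2-HG libraries 2 and 3 lay inside the vehicle range. The difference was 0.28 on log2(FPKM + 1), with a 95% interval of -0.73 to 1.28, the widest of the 9. Exons of Ltc4s share 268 of 1014 bp with an antisense model on the opposite strand. Ptgs1, Ptgis, Tbxas1 and Alox5ap share 144 to 189 bp with opposite-strand models, and strand handling is not given in the sources used here, so these values may hold reads of the partner.

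The order of the levels was clear at the top and blurred lower down. Over all 6 libraries the means fell in the order Alox5ap, Lta4h, Hpgds, Tbxas1, Ltc4s, Ptgis, Ptgs1, Ptges, Ptgs2 and Alox5, at 82.8 ± 12.9 FPKM for the first and 0.444 ± 0.157 FPKM for the last (SD, n = 6). The ranges of Alox5ap and Lta4h did not overlap, nor did those of Lta4h and Hpgds. Each of the other neighbours overlapped in range. Within a library Hpgds was nevertheless above Tbxas1 in 6 of 6, Tbxas1 above Ltc4s in 6 of 6 and Ptgs2 above Alox5 in 6 of 6. Ptgis was above Ptgs1 in 4 of 6, so neither was regularly the higher. By mean, Ptgs2 and Ptges were the lowest of the prostanoid arm among the synthesis genes. Lta4h exceeded Ltc4s by a ratio of FPKM between 3.90 and 17.2, and Tbxas1 exceeded Ptgis by 2.33 to 4.63.

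No other gene of the eicosanoid pathway passed either. The 8 further lists held 80 names, of which 78 were in the table and 42 reached the filter. Of the 42, 0 had an adjusted p under 0.05 (0% of all genes, limma). At an unadjusted p under 0.05 the count was 0, against 1.44% of all genes (limma). The mean was higher with R-2-HG in 12 and lower in 30, with a median difference of -0.05 on log2(FPKM + 1) beside -0.004 over all genes. Of all 9701 genes tested 4691 were higher and 5010 lower. The groups were apart in 1 of 42, Pla2g12a, against 4.69% of all genes.

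**Figure D3:**
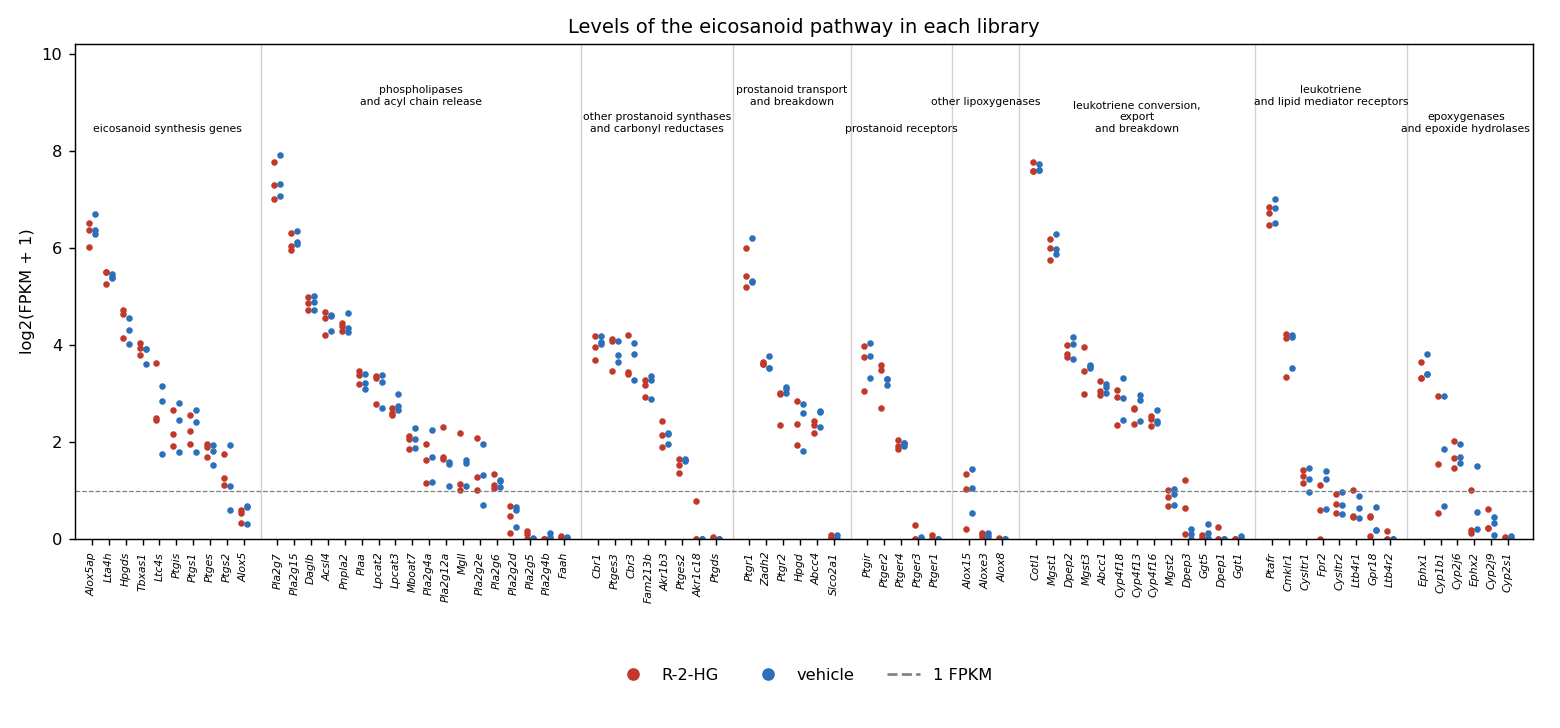
Level of each eicosanoid pathway gene with a value above 0 as log2(FPKM + 1), grouped by list and ordered by mean within a list, R-2-HG libraries in red to the left of vehicle libraries in blue, and the dashed line at 1 FPKM. Of the 42 other pathway genes tested, Pla2g12a is the one whose colours stand apart, and Pla2g7, Cotl1, Ptafr and Alox5ap are among the highest.

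Of the phospholipase list 14 of 19 genes were tested, 6 above vehicle by mean and 8 below. Pla2g12a, a secreted phospholipase, averaged 2.79 ± 1.03 FPKM with R-2-HG and 1.69 ± 0.487 FPKM with vehicle (SD, n = 3; 0.48 ± 0.23 SE on log2(FPKM + 1), adjusted p = 0.99998, limma). Its values were 2.23, 2.16 and 3.98 FPKM with R-2-HG and 1.13, 2.01 and 1.92 FPKM with vehicle, and every R-2-HG library lay above every vehicle library. Lpcat3, which puts arachidonic acid back into phospholipids, stood at -0.18 ± 0.13 (SE), and Plaa, a protein named for activating phospholipase A, at 0.12 ± 0.13. The most abundant was Pla2g7, a secreted hydrolase of platelet-activating factor, at 167 ± 45.2 FPKM with R-2-HG and 178 ± 56.3 FPKM with vehicle. Pla2g4a, the cytosolic phospholipase that supplies arachidonic acid to both arms, stood at 2.90, 2.12 and 1.24 FPKM with R-2-HG and at 3.73, 2.24 and 1.26 FPKM with vehicle.

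Of the other prostanoid synthases and carbonyl reductases 6 were tested, 2 above vehicle by mean and 4 below. The carbonyl reductase Cbr1 was the most abundant, at 14.6 ± 2.62 FPKM with R-2-HG and 16.0 ± 1.04 FPKM with vehicle (SD, n = 3; difference of -0.13 ± 0.14 SE). Ptges2, a second prostaglandin E synthase, differed by -0.12 ± 0.14 and the aldose reductase Akr1b3 by 0.05 ± 0.17. Ptges3, also named as a prostaglandin E synthase, averaged 13.8 FPKM over all 6 libraries, beside 13.7 FPKM for Tbxas1. Ptgds, the lipocalin-type prostaglandin D synthase, was at 0 in 5 of 6 libraries, so Hpgds was the prostaglandin D synthase with appreciable signal. Of the genes that export or break down prostanoids 5 were tested, 1 above vehicle by mean and 4 below. Ptgr2 (-0.29 ± 0.19) and Ptgr1 (-0.07 ± 0.29), both reductases of oxidised prostaglandins, and the exporter Abcc4 (-0.21 ± 0.15) had the smallest p, and Ptgr1 was the most abundant at 46.8 ± 14.3 FPKM with R-2-HG and 50.0 ± 19.5 FPKM with vehicle.

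Few prostanoid receptors had signal in these cells. Of the 9 prostanoid receptors 3 reached the filter, and 4, those for prostaglandin F (Ptgfr), thromboxane (Tbxa2r) and prostaglandin D (Ptgdr and Ptgdr2), were at 0 in all 6 libraries. Ptgir, the prostacyclin receptor, averaged 11.6 ± 3.85 FPKM with R-2-HG and 12.4 ± 3.26 FPKM with vehicle (SD, n = 3; difference of -0.11 ± 0.27 SE). The prostaglandin E receptor Ptger2 averaged 8.91 ± 2.97 FPKM with R-2-HG and 8.57 ± 0.5004 FPKM with vehicle, and Ptger4 2.86 ± 0.263 FPKM with R-2-HG and 2.89 ± 0.109 FPKM with vehicle. Among the synthesis genes, the abundant terminal synthases Hpgds and Tbxas1 stood beside receptors listed at 0, and the scarcer Ptgis and Ptges beside receptors with signal. The contrast did not extend to all genes named as prostaglandin E synthases. Over all 6 libraries Ptges3 averaged 13.8 FPKM, beside 13.7 FPKM for Tbxas1, and Ptges2 averaged 1.98 FPKM. By transcript level, an abundant gene of that name thus also stood beside Ptger2 and Ptger4. Its share in making prostaglandin E was not tested.

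Of the other 6 lipoxygenases none reached the filter, and Alox12, Alox12b and Alox12e were at 0 in all 6 libraries. Alox15, the 12/15-lipoxygenase that marks resident peritoneal macrophages, was the highest, at 1.52, 1.05 and 0.159 FPKM with R-2-HG and 1.08, 1.73 and 0.445 FPKM with vehicle. The libraries numbered 3 were lowest in each group. Of the genes for leukotriene conversion, export and breakdown 8 were tested, 1 above vehicle by mean and 7 below. Cyp4f13, of a family that hydroxylates leukotriene B, differed by -0.17 ± 0.18 (SE), the dipeptidase Dpep2 by -0.11 ± 0.14 and the glutathione transferase Mgst1 by -0.07 ± 0.15. Cotl1, whose human product binds 5-lipoxygenase, was the most abundant at 199.5 ± 14.9 FPKM with R-2-HG and 199.2 ± 9.86 FPKM with vehicle.

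Of the leukotriene and lipid mediator receptors 3 of 10 were tested, 1 above vehicle by mean and 2 below. Ptafr, the receptor of platelet-activating factor, was by far the highest, at 102 ± 12.7 FPKM with R-2-HG and 109.8 ± 19.1 FPKM with vehicle (SD, n = 3; difference of -0.09 ± 0.16 SE). The cysteinyl leukotriene receptor Cysltr1 differed by 0.07 ± 0.18 and the chemerin receptor Cmklr1 by -0.06 ± 0.28. Of the epoxygenases and epoxide hydrolases 3 of 7 were tested, all below vehicle by mean. Ephx1, the microsomal epoxide hydrolase, differed by -0.11 ± 0.16, Cyp1b1 by -0.15 ± 0.75 and Cyp2j6 by -0.02 ± 0.19.

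Part of the spread within each group ran along the replicate number. The titles number the libraries 1 to 3 in each group without saying what the number marks, and the difference of number 1 minus number 3 was fitted with limma with treatment as a second term, a test chosen after the values were seen. Of the 9 synthesis genes 0 passed (smallest adjusted p = 0.0506, for Ptgis), and 6 had an unadjusted p under 0.05, against 3.11% and 18.9% of all 9701 genes. The difference on log2(FPKM + 1) was 1.28 ± 0.26 (SE) for Ltc4s, 0.99 ± 0.21 for Ptgs2, 0.88 ± 0.16 for Ptgis, 0.74 ± 0.15 for Ptgs1, 0.24 ± 0.09 for Alox5ap and -0.39 ± 0.10 for Hpgds. It was 0.22 ± 0.10 for Tbxas1, 0.07 ± 0.19 for Ptges and 0.04 ± 0.09 for Lta4h. Single libraries decided these calls: Ptgs1, Ptgs2 and Ptgis passed without R-2-HG library 3, Ptgis and Hpgds without vehicle library 3, and Ltc4s without either library numbered 2. Ptgis also passed after median ratio scaling.

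**Figure D4:**
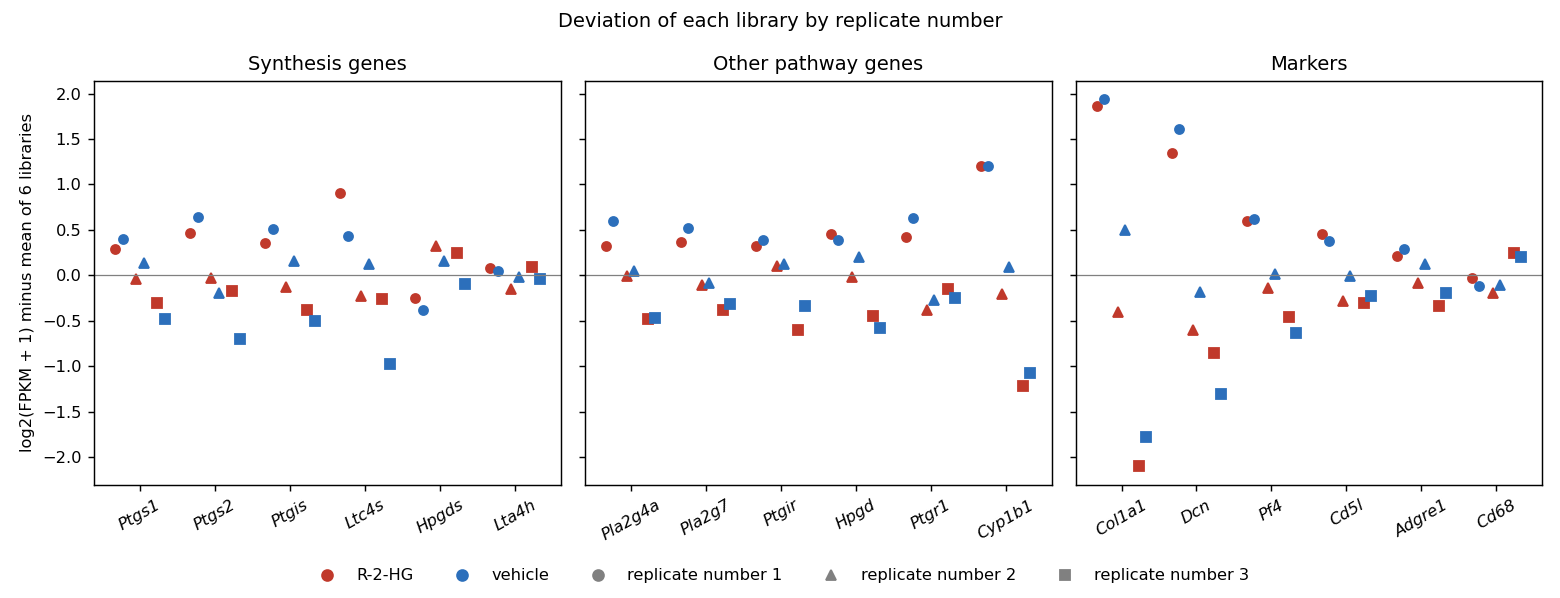
Deviation of each library from the gene's mean over 6 libraries on log2(FPKM + 1), R-2-HG in red and vehicle in blue, with circles, triangles and squares for replicate numbers 1, 2 and 3. Circles stand above squares for Ptgs1, Ptgs2, Ptgis, Ltc4s, all 6 other pathway genes drawn and Col1a1, Dcn, Pf4, Cd5l and Adgre1, and below them for Hpgds and Cd68.

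Of the 42 other pathway genes 7 passed in this contrast, all higher in number 1, beside 2.07% of all genes in that direction. Pla2g4a averaged 3.32 FPKM in the libraries numbered 1 and 1.25 FPKM in those numbered 3 (0.93 ± 0.15, adjusted p = 0.0396, limma). The prostacyclin receptor Ptgir averaged 15.2 FPKM in number 1 and 8.16 FPKM in number 3 (adjusted p = 0.0274), and Hpgd, which inactivates prostaglandins, 6.08 FPKM in number 1 and 2.69 FPKM in number 3 (adjusted p = 0.0368). The others were Pla2g7 (0.80 ± 0.07), Ptgr1 (0.73 ± 0.10), Cmklr1 (0.74 ± 0.11) and Cyp1b1 (2.35 ± 0.15). The count of 7 rests on a few libraries: it was 0 without R-2-HG library 1, 1 without vehicle library 1, 2 without R-2-HG library 2, 2 without vehicle library 2, 1 without a filter on low values and 3 without trend or robust estimation.

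Some markers of macrophages and of other cells differed between the numbers as well. Of those that passed, only Vwf was lower in number 1. The 9 fibroblast and mesothelial markers summed to 74.5, 11.9 and 4.12 FPKM with R-2-HG and to 85.5, 23.3 and 4.0003 FPKM with vehicle, and all 5 that were tested were higher in number 1. Col1a1 led them, at 29.7, 5.35 and 0.965 FPKM with R-2-HG and 31.3, 10.9 and 1.46 FPKM with vehicle. The macrophage gene Adgre1 (0.52 ± 0.07, SE), the resident peritoneal macrophage genes Cd5l (0.69 ± 0.10) and Gata6 (0.97 ± 0.16), the platelet factor gene Pf4 (1.16 ± 0.10) and the neutrophil collagenase gene Mmp8 (0.78 ± 0.13) were also higher in number 1. The endothelial gene Vwf was lower in number 1 (-0.89 ± 0.13, adjusted p = 0.032, limma). The other endothelial marker tested, Kdr, did not differ (0.03 ± 0.16, adjusted p = 0.938, limma), and Cdh5, Pecam1 and Tek were under the filter. The other macrophage markers tested did not pass. Higher in number 1 were Fcgr1 (0.81 ± 0.15, adjusted p = 0.0506, limma), Lyz2 (0.35 ± 0.10), Csf1r (0.22 ± 0.08) and Mertk (0.19 ± 0.08). Lower were Cd68 (-0.30 ± 0.08) and Itgam (-0.43 ± 0.30). The resident marker Icam2 did not pass (0.06 ± 0.16). Of the resident markers only Cd5l was abundant, at a mean of 119 FPKM over all 6 libraries. Gata6 averaged 1.82 FPKM and Icam2 1.25 FPKM, while Alox15 (0.999), Timd4 (0.623) and Selp (0.193) were under the filter. The neutrophil marker S100a8 did not pass either (0.72 ± 0.20). The part of these cells in the values of Ptgis, Ptgs1, Ptgs2 and Ltc4s was not tested.

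The genes whose profile lay nearest to the 2 most variable members were sought among all genes tested, by the distance between profiles centred on their own mean over the 6 libraries, on log2(FPKM + 1). For Ltc4s these were Tmeff1, a transmembrane protein (distance 0.28), Lgals3bp, a secreted galectin-binding protein (0.41), and Ankrd1, a transcriptional cofactor (0.42), where the median gene lay at 1.51. For Ptgs2 they were Npl, a sialic acid lyase (0.23), the ephrin gene Efnb1 (0.25) and Gm5424 (0.27), where the median gene lay at 1.18.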

How the data were processed

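RNA-seq of 6 libraries, 3 with R-2-HG and 3 with vehicle, was analysed from 1 deposited table of FPKM made by the authors. The submitters' processing notes name Bowtie 0.12.2, Cuffdiff, mm8 and mm10, with no role or order; the annotation is not given in the sources used here. The unit was taken as FPKM because low values times exon length came in whole steps: between 95.2% and 96.9% of low values in single-transcript genes lay within 0.1 of a whole fragment. FPKM keep no counts, so no count test was used and intervals cover the spread between libraries only.

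The two-sided test was that of limma 3.58.1 (R 4.3.3, with trend and robust options) on log2(FPKM + 1). It took the 9701 genes whose average across the libraries reached 1 FPKM, adjusted p by Benjamini-Hochberg across all of these and called genes at 0.05; errors of differences are SEs. On this scale the change of low genes is understated. Ratios were compared with exact permutation tests that did not pair libraries by replicate number. The method was tested on simulated data. No result of that test is given here, and nothing above rests on it. Of repeated symbols, the model with the highest mean was used. Locations came from GENCODE M21 (GRCm38), start regions from RefSeq (GRCm38.p6). Python 3.11.15, pandas 2.3.3, numpy 2.4.6, scipy 1.17.1 and matplotlib 3.10.9 were used.

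The members and lists were chosen with earlier results of these data known. The text names all 10 members, of each further list up to 3 genes with the smallest p and the most abundant one, and for the 2 tested members of widest range the 3 genes with the nearest profile. Marker genes, Pla2g4a, Ptges3, Ptgds, the receptors at 0, Hpgd and the rest of the genes called between numbers 1 and 3 fall outside this rule. They were picked with their values in view. Deviations of same-numbered libraries from their group means correlated across genes at 0.54, 0.37 and 0.36, all above 0.1, so the numbers were taken to pair the libraries; this comes from the data, not the labels. The counts for R-2-HG against vehicle were refitted under 13 alternatives, and those between replicate numbers under the same ones except the block. Genes with a mean under 5 FPKM have no value at the filter of 5 FPKM, and the ratios and Alox5 were not refitted.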

Additional observations from a re-analysis of the deposited data

How the results depend on the processing

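With the replicate number as a block, as under the other alternatives that keep all 6 libraries, 0 genes were called for R-2-HG against vehicle, and the block gave 329 genes at an unadjusted p under 0.05 against 140 without it; it changed no call. Leaving out 1 library at a time called 0 to 1 genes (1 without R-2-HG library 1 and 1 without R-2-HG library 3), none of them in the eicosanoid lists. The number 1 against number 3 contrast depends on the setting. Of all genes it called 302, but 14 without a filter, 165 without trend or robust estimation and 24 (without R-2-HG library 1) to 821 (without vehicle library 3) with 1 library left out. Of the synthesis genes it called 0, but 1 (Ptgis, adjusted p = 0.0472, limma) after median ratio scaling and 0 to 3 with 1 library left out (3 without R-2-HG library 3). Of the other pathway genes it called 7, but 1 without a filter, 3 without trend or robust estimation and 0 to 10 with 1 library left out. The cause was not tested.

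None of the differences that changed sign had passed the test. With 1 library left out, the treatment difference on log2(FPKM + 1) ran, lowest to highest, as follows among the synthesis genes: Ptgs1 -0.29 to 0.15, Ptgs2 -0.14 to 0.53, Ptges -0.039 to 0.17, Ptgis -0.38 to 0.12, Lta4h -0.031 to 0.089 and Ltc4s -0.14 to 0.56. Among the other pathway genes it ran: Akr1b3 -0.084 to 0.18, Cmklr1 -0.28 to 0.22, Cyp1b1 -0.78 to 0.43, Cyp2j6 -0.17 to 0.11, Cysltr1 -0.065 to 0.19, Ephx1 -0.22 to 0.033, Mgst1 -0.17 to 0.054, Ptafr -0.23 to 0.023, Ptger2 -0.16 to 0.28, Ptger4 -0.065 to 0.030, Ptgir -0.31 to 0.16 and Ptgr1 -0.30 to 0.23. Other differences kept their sign but moved by over 1.5 times: Hpgds ran from 0.07 without vehicle library 1 to 0.39 without R-2-HG library 1, Alox5ap from -0.26 without R-2-HG library 1 to -0.01 without R-2-HG library 2, and Tbxas1 from 0.02 without vehicle library 3 to 0.18 without R-2-HG library 3. So did the other pathway genes named with a difference that are not listed above; Pla2g12a, for example, stood at 0.27 without R-2-HG library 3 and Cbr1 ran from -0.25 to -0.004. The number 1 minus number 3 difference ran from -0.19 to 0.33 for Ptges and from -0.048 to 0.12 for Lta4h. Ptger2 turned to -0.0040 with a pseudocount of 0.1, and Lta4h between numbers turned to -0.0028 after quantile normalization.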
